A study of Amphiura filiformis with 28 samples.

Results

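A set of 100 genes of the brittle star *Amphiura filiformis* was examined that were high in the mature arm, nearly silent in the early regenerate and high again at the proximal base of an older regenerate. They were chosen from the 28263 genes of the arm regeneration time course. The score was log2 of the lower of the control and 50% proximal values plus 1, over the highest of stages 3, 4 and 5 plus 1, and the 100 genes with the highest score were kept, with ties broken by the control value. The choice thus fixed how the control, the 50% proximal sample and stages 3 to 5 compare, and those values are given as a description only. The samples at 48 and 72 h post amputation (hpa), the 50% distal sample and all explants played no part in the choice.

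All 28 samples were whole arm tissue of wild-type animals with no treatment, sequenced as polyA RNA. The time course held 1 pooled sample per stage. The control was, according to the methods, a piece of mature, non-regenerating arm, although its label gives the tissue as a regenerating explant. The last segment at the amputation site was taken at 48 and 72 hpa, only new tissue at stages 3, 4 and 5, and several segments from the proximal (50P) and distal (50D) ends once 50% of the regenerate had differentiated. Stage and dissected tissue therefore cannot be told apart. The explants were severed arm pieces, cut into distal, medial and proximal segments at 3 days post amputation (dpa; 4 distal, 4 medial and 3 proximal samples) and at 5 dpa (3 samples of each), each a batch of many explants. The distal end of an explant regenerates, the proximal end closes its wound without regenerating, and the medial segment served as the study's control. The labels do not say that replicates came from separate animals, so p-values measure the spread between these samples.

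An arm that is cut first closes the wound, then grows a bud of dividing cells, and new segments mature from the base towards the tip, so that the proximal end of a regenerate is older and more differentiated than the distal end. Genes of fully differentiated arm tissue can thus be scarce in the early bud and return first at the base. In bulk tissue, fewer cells of a type and less RNA per cell cannot be told apart.

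Most members carry no name here. None of the 100 identifiers matched the RefSeq gene table, and 6 were found in the gene table of chromosome 1, of which 2 have a protein name. Both are similar to the alpha-6 subunit of the nicotinic acetylcholine receptor, a ligand-gated ion channel that opens when acetylcholine binds, and both hold the ligand-binding and the transmembrane domains of that channel family. Acha6-6 (AFI30140) lies on chromosome 1 of the study's assembly from 2359617 to 2377359 on the plus strand, and Acha6-7 (AFI31791) from 48682780 to 48696714 on the minus strand. AFI30725 (42288017 to 42289217, minus strand) holds a Kazal domain, a fold known from inhibitors of serine proteases. The other 3 are uncharacterized. AFI31748 (1858632 to 1916391, plus strand) and AFI31245 (1961694 to 1965996, plus strand) follow each other with 0 listed genes between them. AFI30272 (48720281 to 48761978, minus strand) is separated from Acha6-7 by 1 listed gene. AFI31245 is dated to the *A. filiformis* lineage and AFI30272 to the Asterozoa. Pseudo-alignment divides reads among genes of like sequence, so the split between receptor genes of near-identical sequence would be uncertain.

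In the time course, control values of the members ran from 8.34 to 87656 TPM (transcript abundance corrected for length, rescaled between samples by the authors) with a median of 105, and the 50P values from 6.57 to 1599 with a median of 50.6. The highest of stages 3 to 5 had a median of 0.91 and reached 90.1, and 26 members are listed at 0 in all 3 of these stages. AFI24804 had the highest score, with 301 TPM in the control, 131 at 50P and 0 listed at stages 3, 4 and 5. AFI23956 came next, with 21897 in the control, at most 1.73 at stages 3 to 5 and 356 at 50P. At the rank limit, AFI20689 (16.5 in the control, 6.57 at 50P, listed at 0 at stages 3 to 5) and AFI29059 (40.5, 36.3 and at most 3.97) were just inside, with scores of 2.92 and 2.91. AFI26813 (54.4, 11.8 and at most 0.73) and AFI33576 (65.1, 20.5 and at most 1.93) were just outside, with 2.88 and 2.87.

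The word regained holds for some members more than for others. The median member stood at 37.7% of its control level at 50P, with a range of 0.22% to 277%, and 58 members were below 50%. The 2 most abundant members were far from it. AFI13184, which had the highest value of all genes in the control (87656 TPM), reached 307 at 50P, or 0.35% of the control. AFI21211, the second most abundant member, went from 66918 in the control to at most 8.05 at stages 3 to 5 and 144 at 50P. Acha6-6, in contrast, was at 16.4 in the control and 19.0 at 50P. In all, 16 members were higher at 50P than in the control. These ratios depend on the scaling: with every sample brought to the same total, the median was 119% and 60 members were higher at 50P, while the median of all genes with a control value of at least 1 went from 65.5% to 206%.

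**Figure D1:**
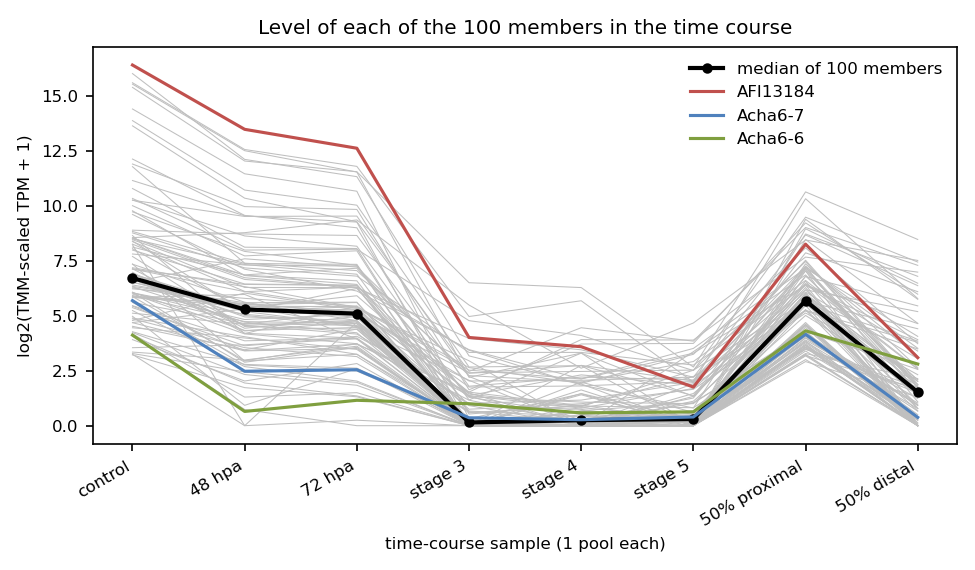
Level of each member (grey lines) in the 8 time-course samples, as log2 of TMM-scaled TPM plus 1, with the median of the 100 members in black and 3 members in colour. The fall at stages 3 to 5 and the return at 50P follow from the choice of the members. The values at 48 hpa, 72 hpa and 50D were not used in the choice, with medians of 38.2, 33.3 and 1.88 TPM. Their lying below the control or 50P is still partly built in.

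At 48 and 72 hpa the members were mostly lower than in the control but above stages 3 to 5. Of the 100, 97 were above all of stages 3 to 5 at 48 hpa and 99 at 72 hpa, against 42.6% and 39.6% of all genes with a control value of at least 1. The rule required low values at stages 3 to 5, so these counts are largely built into the choice. The median member stood at 28.8% of its control level at 48 hpa and 24.9% at 72 hpa, against 76.5% and 70.1% for all genes with a control value of at least 1. The rule also required a high control value, which was the highest of the 8 samples in 79 members. Low percentages of the control are therefore partly built into the choice as well. The receptor gene Acha6-7 measured 4.57 TPM at 48 hpa and 4.85 at 72 hpa, under a control level of 50.8, and Acha6-6 0.57 and 1.23, under 16.4. The gene with the Kazal domain, AFI30725, was instead above its control value of 10.7 in both samples, at 11.8 and 14.5. With 1 sample each, none of these differences can be set against an experimental error, and at equal totals the medians were 66.6% and 70.5%, against 177% and 199% for all genes.

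At the distal end of the same older regenerates the members were low. The median member at 50D stood at 3.34% of its 50P level, against 100% for all genes with a 50P value of at least 1, and 98 of 100 members were below 50%, as were 17.1% of those genes. AFI24804, AFI30725 and AFI30272, an uncharacterized gene at 1779 TPM in the control and 55.8 at 50P, are listed at 0 at 50D. Acha6-7 was at 0.30 at 50D, against 16.9 at 50P. Its relative Acha6-6 kept more, with 5.999 against 19.0, and AFI31748 was at 12.9 against 37.1. Altogether 58 members were above all of stages 3 to 5 at 50D, against 23.0% of all genes with a control value of at least 1, and 25 are listed at 0. This count too is partly built in by the low values the rule required at stages 3 to 5. Because members were chosen for a high 50P value, a lower value in any other sample is partly built into the choice.

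All 100 members were present in the explant table and all passed the filter there (1 or more in 3 or more of the 20 samples). Of them, 97 had a value above 0 in every explant. The 2 tables were normalized separately, so levels are not compared between them, and the share of each column's own total is given instead. The 100 members held 21.8% of the control total, 6.26% at 48 hpa, 4.90% at 72 hpa, 0.018% to 0.022% at stages 3 to 5, 2.35% at 50P and 0.19% at 50D. In medial explants they held 18.9% ± 1.49 (SD, n = 4) at 3 dpa and 19.9% ± 2.29 (n = 3) at 5 dpa. In distal explants the share was 16.997% ± 1.07 (n = 4) at 3 dpa and 11.7% ± 2.38 (n = 3) at 5 dpa, where the 3 samples were at 13.1%, 9.001% and 13.1%. Proximal explants held 17.3% ± 0.83 (n = 3) at 3 dpa and 14.7% ± 1.54 (n = 3) at 5 dpa, where the 3 samples were at 14.9%, 13.03% and 16.1%. The samples of all 3 segments overlapped at 3 dpa. At 5 dpa every distal and every proximal sample was below every medial one (17.3%, 20.9% and 21.6%), and distal and proximal samples overlapped. A share also falls as the column total grows. At 5 dpa the totals ran from 1101616 to 2976429 in proximal and from 1086014 to 1586838 in medial explants. The 17 members with a control value of at least 1000 made up most of each explant share. Their own values at 5 dpa had a median log2 change against medial explants of 0.13 in proximal and -0.48 in distal ones. The lower proximal share is thus not matched by lower values of these 17 members as a group. The other 83 members alone held 2.75% ± 0.13 in medial (2.60% to 2.89%), 2.18% ± 0.13 in distal (1.99% to 2.31%) and 2.06% ± 0.045 in proximal explants (2.03% to 2.12%) at 3 dpa, so that both ends were already below all medial samples. They held 2.65% ± 0.19 in medial, 1.26% ± 0.22 in distal and 1.57% ± 0.51 in proximal explants at 5 dpa.

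**Figure D2:**
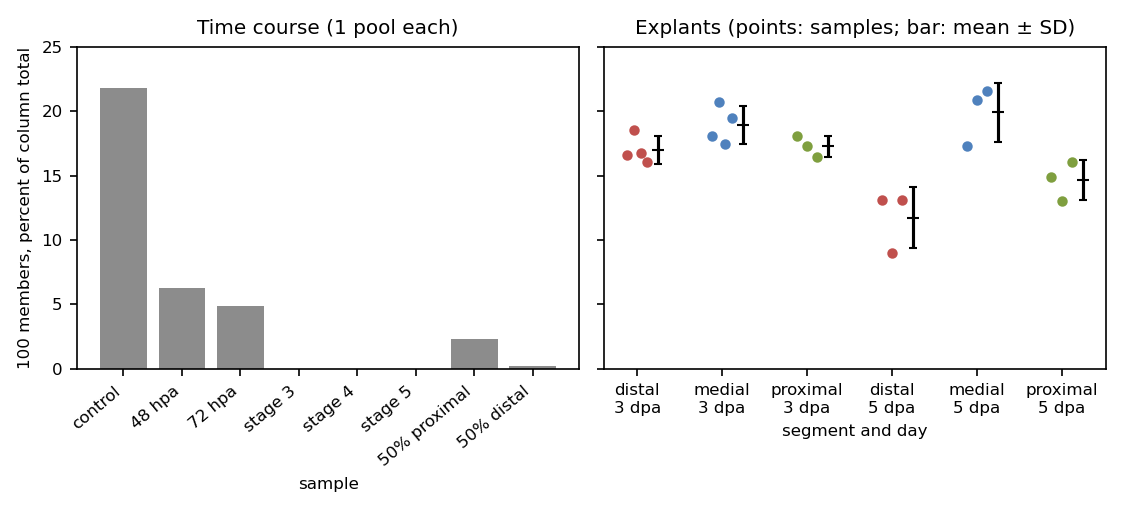
Share of the column total held by the 100 members, in percent, in the 8 time-course pools (bars) and in the 20 explant samples (points, with the group mean ± SD beside them). The share was 21.8% in the control and at most 0.022% at stages 3 to 5, and all 3 distal and all 3 proximal explants at 5 dpa lay below all 3 medial ones.

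The comparison of distal with medial explants asks whether these mature arm genes were lower where an explant regenerates. Calls were made with limma on log2(TPM + 1), at an adjusted p (Benjamini–Hochberg over 21442 genes) under 0.05 and an absolute log2 change over 1. At 3 dpa, 5 members fell in distal explants, against 0.284% of all tested genes called lower, and 0 rose, against 1.7%. The median change was -0.29 on the log2 scale, against 0.01 for all genes, and 93 of the 100 members had a change below 0, as did 49.3% of all genes. The groups did not overlap, with distal lower, in 24 members and in 7.97% of all genes.

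AFI05786 showed the largest fall at 3 dpa. Its values were 115, 112, 99.8 and 91.2 TPM in distal explants and 263, 276, 267 and 227 in medial ones. Every distal sample was thus less than any medial one, and the log2 change was -1.30 ± 0.19 (SE; adjusted p = 0.000239, limma). It was also less in distal explants at 5 dpa, at 97.4, 61.2 and 89.2 against 177, 258 and 203, with a change of -1.36 ± 0.22 (adjusted p = 0.00051, limma). Proximal explants were closer to medial ones. At 3 dpa they were at 226, 203 and 194, just below all medial values, a change of -0.31 ± 0.20 that was not called. At 5 dpa they were at 170, 283 and 153, which overlapped with the medial values.

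Acha6-7, the receptor gene, was at 116, 89.8, 84.2 and 72.9 TPM in distal explants at 3 dpa. In medial explants it was at 228, 230, 209 and 148. The groups were separate and the log2 change was -1.15 ± 0.24 (adjusted p = 0.00547, limma). At 5 dpa it was at 80.6, 48.5 and 75.1 in distal explants and at 136, 243 and 246 in medial ones, a change of -1.58 ± 0.28 (adjusted p = 0.00106, limma). In proximal explants at 5 dpa it was at 115, 174 and 129, which overlapped with the medial values (log2 change -0.55 ± 0.28, adjusted p = 0.258, limma).

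Acha6-6, with the same domains, had no called change. It was at 14.04, 13.9, 12.8 and 14.9 TPM in distal and 17.9, 14.01, 16.9 and 15.1 in medial explants at 3 dpa (log2 change -0.18 ± 0.19, adjusted p = 0.661, limma). At 5 dpa the distal values of 22.7, 15.1 and 15.9 overlapped with the medial values of 15.97, 26.3 and 27.1 (log2 change -0.34 ± 0.22, adjusted p = 0.349, limma). Whether the 2 receptor genes differ in their change was not tested.

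The remaining 3 members that fell in distal explants at 3 dpa were AFI21319 (log2 change -1.12), AFI20990 (-1.08) and AFI22287 (-1.05), of which the first and last are named after their values were seen. Medial replicate 2 was the highest of its group for AFI20990, and without it 3 members were called.

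At 5 dpa the fall in distal explants was seen in more members. Of the 100, 25 fell, against 2.05% of all tested genes, and 0 rose, against 3.42%. Their groups were all separate, and distal samples were below all medial ones in 36 members, against 12.3% of all genes. The median change of the 100 was -0.63, against 0.01 for all genes, and 92 members had a change below 0. Of the 25 members, 2 were among the 17 abundant ones and 23 among the other 83. The abundant AFI13184 was at 61953, 23532 and 36005 TPM in distal and 44659, 81278 and 68066 in medial explants, which overlap (log2 change -0.74 ± 0.39, adjusted p = 0.222, limma).

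AFI24804, the member with the highest score, fell most. It was at 865, 92.2 and 134 TPM in distal and 2033, 1881 and 3050 in medial explants at 5 dpa, and the log2 change was -3.35 ± 0.79 (adjusted p = 0.00808, limma). Distal replicate 1 was far above the other distal samples. AFI20990 was at 54.5, 88.1 and 171 in distal and 338, 387 and 246 in medial explants (log2 change -1.75 ± 0.31, adjusted p = 0.0012, limma). All distal values of both genes were below all medial ones. So were the proximal values at 5 dpa, at 343, 847 and 678 for AFI24804 and 124, 189 and 156 for AFI20990. Their proximal changes of -1.96 ± 0.79 (adjusted p = 0.151, limma) and -1.04 ± 0.31 (adjusted p = 0.0581, limma) were not called.

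The neighbouring AFI31748 and AFI31245 both fell in distal explants at 5 dpa. AFI31748 was at 251, 101 and 159 TPM in distal and 384, 476 and 547 in medial explants, a change of -1.54 ± 0.32 (adjusted p = 0.0034, limma). AFI31245 was at 470, 198 and 364 against 557, 809 and 815, a change of -1.14 ± 0.33 (adjusted p = 0.0251, limma). Leaving out 1 replicate in turn lost this AFI31245 call in 3 of 6 fits, with changes up to -0.79 (adjusted p up to 0.151, limma). The AFI31748 call was lost in 0 of 6. At 3 dpa the changes of AFI31748 (-0.48) and AFI31245 (-0.66) were not called, with overlapping groups. AFI30272, beside Acha6-7, had a change of -0.59 ± 0.26 at 5 dpa with overlapping groups (adjusted p = 0.141, limma), and AFI30725, with the Kazal domain, of -0.46 ± 0.31 (adjusted p = 0.362, limma).

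The number of members called depended on the setting. All 25 stayed below 0 under every alternative, but this was largely built in. They were picked for a fall in these same samples, and their groups were separate. Without distal replicate 2 at 5 dpa, which had the lowest member share, 9 members were called lower. Without medial replicate 2 there were 16, and with only the 6 samples compared in the fit there were 3. The share of all genes called in these settings is not given here.

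**Figure D3:**
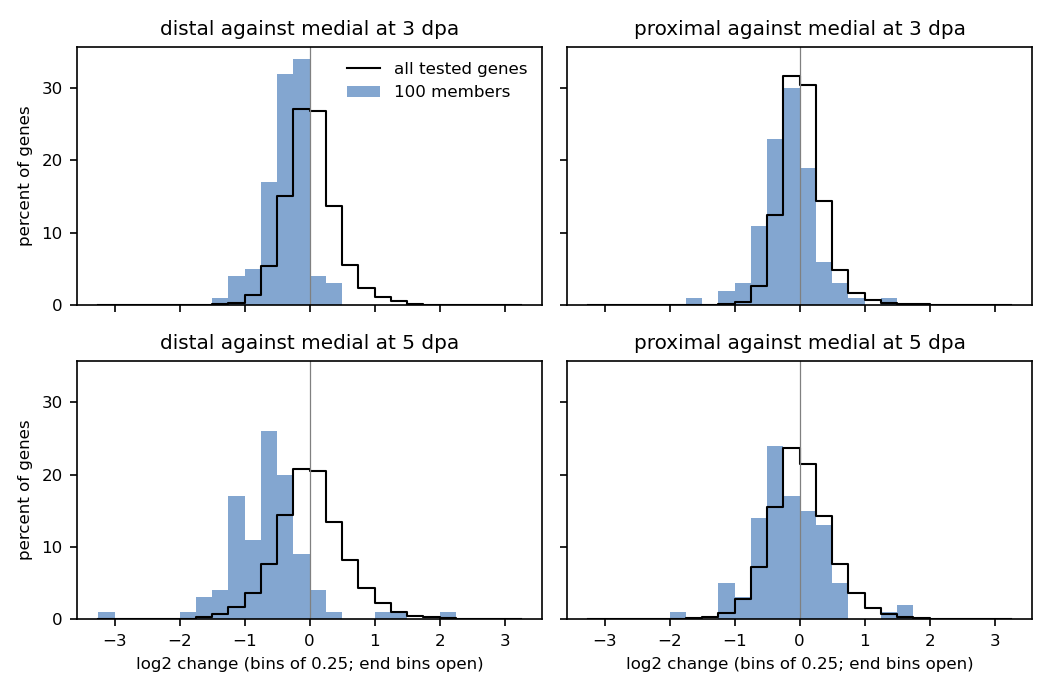
Distribution of log2 changes of the 100 members (blue bars) and of all 21442 tested genes (black line) for the 4 comparisons with medial explants, in percent of genes per bin of 0.25. The members lie to the left of all genes in distal explants, with medians of -0.29 at 3 dpa and -0.63 at 5 dpa, and less so in proximal ones, with medians of -0.14 and -0.18.

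Proximal explants, which close a wound without regenerating, were compared with the same medial samples. At 3 dpa 0 members were called lower and 0 higher, against 0.00933% and 0.438% of all genes, and 13 members had an unadjusted p under 0.05 in limma, against 10.4% of all genes. The median change was -0.14 and 70 members were below 0. Changes of -0.5 to -0.25 held 23% of members and 12.4% of all genes, and changes of 0.25 to 0.5 held 6% and 14.4%. Proximal samples were below all medial ones in 23 members, against 6.23% of all genes. At 5 dpa 3 members fell, against 0.438% of all genes, and 1 rose, against 1.52%. The median change was -0.18, with 64 members below 0. Changes of -0.5 to -0.25 held 24% of members and 15.5% of all genes, and changes of 0.25 to 0.5 held 13% and 14.3%. Proximal samples were below all medial ones in 16 members, against 7.57% of all genes. The median was 0.13 for the 17 abundant members and -0.29 for the other 83. With only the 6 samples compared in the fit, 0 members were called lower and 0 higher. The same held with the replicate number as a block in the fit, against 0.168% and 0.704% of all genes. At equal totals, which shifted the median of all genes to -0.27, 12 members were called lower and 0 higher. The share of all genes called in that setting is not given here, so these 12 cannot be read as particular to the members.

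AFI31748 was at 164, 228 and 208 TPM in proximal explants at 5 dpa, all under the medial values given above (log2 change -1.23 ± 0.32, adjusted p = 0.0313, limma). This call was lost in 4 of 6 fits that left out 1 replicate (adjusted p up to 0.114, limma). AFI23897 was at 268, 306 and 368 in proximal, 375, 260 and 299 in distal and 510, 754 and 780 in medial explants. It was thus lower at both ends, with changes of -1.10 ± 0.22 (adjusted p = 0.00762, limma) in proximal and -1.12 ± 0.22 (adjusted p = 0.00227, limma) in distal explants, both against the same medial samples. The last of the 3 was AFI00849, with a change of -1.09. The member that rose was AFI20371, at 52.0, 63.2 and 15.6 in proximal and 8.99, 13.6 and 15.9 in medial explants (log2 change 1.51 ± 0.42, adjusted p = 0.0445, limma). Its groups overlap because proximal replicate 5 was at the medial level. These last 2 genes are named after their values were seen. Without proximal replicate 4, medial replicate 2 or proximal replicate 1 at 5 dpa, 1 member was called lower and 0 higher. Without medial replicate 5, 1 was called lower, and without medial replicate 1, 5 were. Without proximal replicate 5, 4 were called higher.

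**Figure D4:**
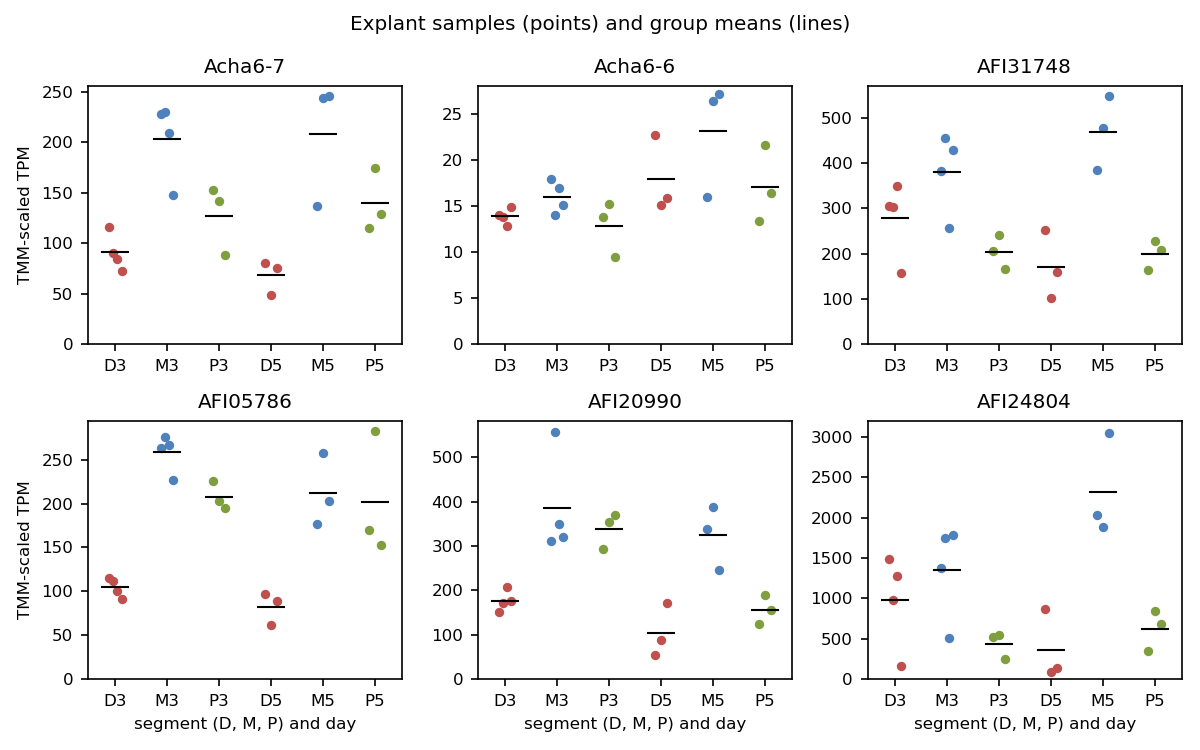
TMM-scaled TPM of 6 members in each explant sample (points) with the group mean (line), for distal (D), medial (M) and proximal (P) segments at 3 and 5 dpa. Distal and medial points do not overlap at either day for Acha6-7, AFI05786 and AFI20990, or at 5 dpa for AFI31748 and AFI24804, and they overlap for Acha6-6.

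Distal and proximal ends were also compared directly. At 3 dpa 0 members were called lower or higher in distal explants, against 0.173% and 0.149% of all genes, with 15 members at an unadjusted p under 0.05 in limma, against 9.23%. Distal samples were below all proximal ones in 23 members, against 9.2% of all genes. At 5 dpa 5 members were lower in distal explants, against 0.947% of all genes, and 0 were higher, against 0.466%. The median change was -0.51, and 93 members were below 0, against a median of 0.03 for all genes. Distal samples were below all proximal ones in 15 members, against 7.47% of all genes. The 5 members were AFI05163, AFI05786, AFI26374, AFI10570 and AFI00747, named after their values were seen apart from AFI05786. AFI05163 was at 225, 97.3 and 135 TPM in distal and 657, 724 and 243 in proximal explants (log2 change -1.76 ± 0.32, adjusted p = 0.00507, limma), without overlap. AFI05786 had a change of -1.25 ± 0.22 (adjusted p = 0.00366, limma). The count rests on single libraries. It was 1 without proximal replicate 4, 3 without distal replicate 2, 8 without distal replicate 1 and 15 without proximal replicate 5. It was 1 at equal totals and 0 with only the groups compared. With the replicate number as a block in the fit, 1 member was lower and 1 higher, against 0.424% and 0.312% of all genes.

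Between the days, 3 members were lower in distal explants at 5 than at 3 dpa, against 0.336% of all genes, and 0 were higher, against 0.499%. They were AFI25551 (log2 change -1.98), AFI19565 (-1.42) and AFI00747 (-1.0), named after their values were seen. AFI00747 lay at the threshold itself. Of the 3, 1 was called without distal replicate 1 at 5 dpa, a setting in which 4 members were called lower in all. Under median-of-ratios rescaling 2 of the 3 were called. At equal totals, which shifted the median of all genes to -0.30, 17 members were called lower. The share of all genes called lower in that setting is not given here. The count of 17 therefore cannot be read as particular to the members. AFI25551 was at 206, 103, 108 and 120 TPM at 3 dpa and 25.6, 30.5 and 41.4 at 5 dpa in distal explants, without overlap. It was also the 1 member lower at 5 dpa in proximal explants, against 0.0373% of all genes (log2 change -1.76 ± 0.30, adjusted p = 0.0251, limma), a call lost without any 1 of 5 of the 6 proximal samples and with only the groups compared. In proximal explants 0 members were higher at 5 dpa, against 0.0606%, and 4 were without proximal replicate 5 at 5 dpa. In medial explants 0 members were called in either direction, against 0.00466% lower and 0% higher of all genes, and 6 had an unadjusted p under 0.05 in limma, against 11.5%. AFI25551 was there at 264, 110, 230 and 161 at 3 dpa and at 66.6, 74.0 and 58.5 at 5 dpa, again without overlap.

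Whether the difference between distal and medial explants itself changed from 3 to 5 dpa was tested as an interaction. In limma, 0 members were called lower or higher, against 0.00466% and 0.0839% of all genes, and 16 members had an unadjusted p under 0.05, against 7.56%. The median of this change was -0.34, and 79 members were below 0, with the share over all genes not given here. The larger count at 5 dpa is therefore not shown to differ from that at 3 dpa for any member. For proximal explants 0 members were called, against 0% of all genes in both directions, with 7 at an unadjusted p under 0.05, against 5.02%, and a median of -0.00.

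Other genes of chromosome 1, in lists chosen by name, give the setting. Of all tested genes, 0.284% fell and 1.7% rose in distal explants at 3 dpa, and 2.05% and 3.42% at 5 dpa. Of the 28 tested genes of the nervous system and ion channel list, which holds both receptor members, 1 fell and 0 rose in distal explants at 3 and at 5 dpa, and Acha6-7 was that gene both times. The medians of the list were -0.14 and -0.22. None of the 4 tested muscle genes was called in distal explants, with medians of -0.32 and -0.34. This list was mostly near the floor in the time-course control. Actb-3 was at 0.42 TPM, Actc-13 at 2.17, Actc-14 at 0, Karg-1 at 0.63, Titin-35 at 0.51 and Pygb at 11.3. It therefore says little about arm muscle. Of 12 extracellular matrix genes, 0 were called at 3 dpa and 3 fell at 5 dpa, among them the collagen-like Coca1-3 (-1.22) and Cola1 (-1.03), with a median of -0.48. Of 24 growth and division genes, 7 rose in distal explants at 3 dpa and 5 at 5 dpa, with medians of 0.68 and 0.87. Among them was Psf1, a subunit of the complex that opens DNA for replication (log2 change 2.16 at 5 dpa). The rise was not limited to the distal end. In proximal explants the medians were 0.37 and 0.66, with 0 genes called higher at 3 dpa and 1 at 5 dpa. That gene was again Psf1 (log2 change 1.04, adjusted p = 0.0167, limma). Of 7 cytochrome P450 genes, 0 were called at 3 dpa and 1 fell at 5 dpa. The part of these movements in the members' changes was not tested.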

How the data were processed

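RNA-seq of 28 samples was used in 2 deposited tables, 1 of the time course (8 samples, 28263 genes) and 1 of the explants (20 samples, 30090 genes). The authors' values are a normalized signal, TPM from pseudo-alignment with kallisto rescaled by TMM, a step stated for the time course and taken from the table's label for the explants. TPM keeps no read numbers, so depth is unknown. The members and the gene lists were chosen with earlier results of these data known.

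Explant values were fitted in limma 3.58.1 under R 4.3.3, as log2(value + 1) with its intensity trend. The fit held the 20 samples as 6 groups and the genes that reached 1 in 3 or more samples. The fit was tested on simulated data. No fit was possible for the time course. Summaries and plots were made in Python 3.11.15 (numpy 2.4.6, pandas 2.3.3, matplotlib 3.10.9). Samples were grouped from their labels. Named members are the 6 on chromosome 1, the 2 with the highest score and the 2 with the highest control value. Also named are, per comparison with medial explants and direction, the 2 called members with the largest change, separate groups and 10 or more as the mean of the higher group, and the genes at the rank limit. Alternatives were another pseudocount, other filters, other scalings, a replicate block, no trend, only the groups compared and each replicate left out. Authors' comparisons and cluster assignments were not used.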

Additional observations from a re-analysis of the deposited data

Results flagged for a closer look

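In 38 groups of 4 samples (15 members named by rule, 3 named later and the members' share, in distal and medial explants at 3 dpa), 2 held a sample far from the others, where chance gives about 1 in 20. AFI25551 was at 205.8 TPM in distal replicate 1, and its gap to the nearest sample was 0.831 of the group's range. AFI20990 was at 556.7 TPM in medial replicate 2, with a gap of 0.851 of the range.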

How the results depend on the processing

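Where a setting is not named, each count stayed within 1.5 times its value. Counts under other settings stand without the share of all genes called there, apart from those with the replicate block. Other forms of the rule kept 67 (pseudocount 0.1), 77 (pseudocount 5), 80 (equal totals) and 98 (median of ratios) of the 100 members. At equal totals, the median member was at 66.6% of control at 48 hpa, 70.5% at 72 hpa and 1.502% at 50D, and at 1.88% of 50P at 50D. In the explants at equal totals, the members called were 12 lower and 0 higher in proximal against medial at 5 dpa, 1 lower and 1 higher in distal against proximal at 5 dpa, and 17 lower in distal at 5 against 3 dpa. With only the groups compared, 3 members were lower in distal against medial at 5 dpa, 0 lower and 0 higher in proximal against medial, 0 lower in distal against proximal, and 0 lower in proximal at 5 against 3 dpa. With a mean of at least 5, 1 member was higher in distal against medial at 5 dpa, 8 were lower and 1 higher in distal against proximal, and 1 was higher in proximal at 5 against 3 dpa. With a pseudocount of 0.1 or no filter, 0 were higher in proximal against medial at 5 dpa. Median-of-ratios rescaling and limma without trend moved no count beyond that.

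Leaving out replicates in turn gave 3 to 5 lower in distal against medial at 3 dpa, 9 to 29 lower and 0 to 2 higher at 5 dpa, 1 to 5 lower and 0 to 4 higher in proximal against medial at 5 dpa, 1 to 15 lower and 0 to 1 higher in distal against proximal at 5 dpa, 2 to 4 lower in distal at 5 against 3 dpa, 0 to 2 lower in medial at 5 against 3 dpa, and 0 to 1 lower and 0 to 4 higher in proximal at 5 against 3 dpa. For 27 changes of named members, 338 of 393 alternatives kept the side of the threshold, 55 lost it and 0 reversed. The 27 include uncalled changes of chromosome 1 members in distal against medial explants, where staying uncalled counts as kept. All 55 losses thus fell on called changes, and several of these were named because they were called.

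Replicate numbers were not taken as a pairing. According to the methods, each explant was dissected into a proximal, a medial and a distal section. Neither the methods nor the labels say whether segments of one number came from the same explants. The p-values of the main fit treat all segments as independent samples. Of 17 same-number pairs, 13 had deviations correlated over 0.1 (r from -0.04 to 0.40). The median r was 0.18 for same-number pairs and -0.07 for pairs of different number, so a shared batch is possible. With a replicate block, 25 members were lower and 2 higher in distal against medial at 5 dpa (2.33% and 3.65% of all genes), 5 lower at 3 dpa (0.317%), 0 lower and 0 higher in proximal against medial at 5 dpa (0.168% and 0.704%), 1 lower and 1 higher in distal against proximal at 5 dpa (0.424% and 0.312%), and 2 lower in distal against proximal at 3 dpa (0.233%). Comparisons between days could not be fitted with the block.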
